A study of Mus musculus with 12 samples.

Results

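The genes described here encode 8 receptors of natural killer (NK) cells and T cells: Klrb1c, Klrk1, Klrd1, Klrc1, Klre1, Klrg1, Ncr1 and Crtam. The members are given by name, and all 8 were rows of a single-cell expression table of 16094 named genes in 22285 spleen cells. The cells came from 4 male mice, whose leukocytes were enriched for the pan-leukocyte antigen CD45 with magnetic beads and captured in 10x droplets. The control group (WT) was 2 C57BL/6 mice and the autoimmune group (SLE.yaa) was 2 B6.Sle1yaa mice, a lupus model that carries the Sle1 susceptibility interval together with the Yaa mutation of the Y chromosome. The labels file each genotype under a chimera condition and say nothing further on chimerism. An age field without a unit holds 14.4 for both WT mice and 14.9 for both SLE.yaa mice. Nothing else about treatment is given, and the numbers 1 and 2 within a group follow the order of deposit and pair no mice.

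NK cells carry germline-encoded receptors, some activating and some inhibitory, and the balance of their signals sets whether the cell kills a target. Most of these receptors in mice are C-type lectin-like proteins, and CD8 T cells gain several of them after activation. The CD94 protein made by Klrd1 pairs with NKG2A, made by Klrc1, and the pair inhibits the cell when it meets the class Ib molecule Qa-1, made by H2-T23. NKG2D, made by Klrk1, is an activating receptor for stress-induced ligands. Klrb1c encodes NK1.1, the antigen that marks NK cells in C57BL/6 mice, and Ncr1 encodes the activating receptor NKp46. Klre1 encodes a receptor that pairs with the Klri proteins, Klrg1 encodes an inhibitory receptor for cadherins, and Crtam encodes an immunoglobulin-family receptor for the adhesion molecule Cadm1.

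In the RefSeq annotation of GRCm38, 6 of the 8 genes lie on chromosome 6. Klrg1 stands apart at 122270596-122282833 and Klrb1c at 128778485-128788641, while Klre1 (129559365-129585828), Klrd1 (129588092-129598775), Klrk1 (129610323-129623903) and Klrc1 (129666015-129682852) follow each other, with 2263 bases between Klre1 and Klrd1 and 11547 between Klrd1 and Klrk1. Ncr1 lies on chromosome 7 at 4337715-4345184 and Crtam on chromosome 9 at 40972798-41004628. The RefSeq table of promoters of GRCm38.p6 held 7 transcript starts for 5 of the 8 genes, all of them genes whose level was highest in NK cells. For each gene the 250 bases before a listed start, the one further upstream where 2 were listed (Klre1 and Ncr1), were searched on both strands for a single word, TGTGGT, whose reverse complement is ACCACA, the core bound by Runx proteins. The word was present in 5 of these 5 windows and in 14.0% of all 32851 windows of the same length. Counted over every listed start of these genes, 6 of 7 windows held it, and the window of the other Klre1 start did not. The Klre1 and Klrc1 starts used lie 18848 and 3879 bases inside the span of the gene given above, so these windows are not upstream of the whole gene. A match is a description of the letters and not evidence of binding. The matches are shown with 20 bases on each side, 5′ to 3′ in the direction of the gene, with the word in capitals. The Klrb1c match ends 83 bases before the start at chr6:128788705-128788750 on the minus strand, the Klrk1 match 123 bases before it at chr6:129623968-129624013 (minus), the Klrc1 match 81 bases before it at chr6:129679035-129679080 (minus) and the Klre1 match 223 bases before it at chr6:129577964-129578009 (plus). The Ncr1 matches end 170 and 35 bases before the start, at chr7:4337519-4337564 and chr7:4337654-4337699 (plus).
Klrb1c: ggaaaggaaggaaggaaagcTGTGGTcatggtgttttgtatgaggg
Klrk1: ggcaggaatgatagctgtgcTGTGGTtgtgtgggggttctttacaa
Klrc1: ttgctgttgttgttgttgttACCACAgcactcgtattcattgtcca
Klre1: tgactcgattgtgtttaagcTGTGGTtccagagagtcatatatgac
Ncr1 upstream match: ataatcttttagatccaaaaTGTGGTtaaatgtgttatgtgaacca
Ncr1 downstream match: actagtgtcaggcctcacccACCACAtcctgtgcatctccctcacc

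The mice gave between 4961 and 6130 cells and between 21793635 and 28877299 unique molecular identifiers (UMIs) each, with a median of 3467 to 4695 UMIs per cell. Any pair of libraries had 35 to 49 cell barcodes in common. Cell types are the authors' 12 annotated classes, and since these came from clustering on expression, differences between types are descriptions with no test. NK cells numbered 119 and 117 in the WT mice and 50 and 46 in the SLE.yaa mice. CD8 cells numbered 448 and 569 in the WT mice against 291 and 338, and CD4 cells 797 and 834 against 635 and 550. The NK label was checked with 14 NK marker genes that include none of the 8 receptors. They summed to 32647 to 47992 in NK cells of the 4 mice and to 404 to 2083 in CD4 cells. In CD8 cells the sums were 4058, 4429, 14012 and 32856, so CD8 cells of SLE.yaa 2 reached the range of NK cells on this list. Ccl5, one gene of the list, alone had a mean of 19533 in the CD8 cells of SLE.yaa mice and 2423 in those of WT mice. The list is not specific to lymphocytes, as it summed to 7789 to 9098 in cells annotated Mac, 5281 to 9869 in dendritic cells and 8256 to 9596 in neutrophils. Levels below are means over the cells of a type in a mouse, scaled to a sum of 1000000 per mouse and type, which is the unit of every level given. Levels are not divided by gene length and compare mice within a gene. A series of 4 values is always in the order WT 1, WT 2, SLE.yaa 1, SLE.yaa 2. Folds are given as differences of log2(level + 10). A gene entered a test when its level was at least 10 in at least 2 mice, and a call is an adjusted p under 0.05 from limma over all genes tested in that type. The labels do not say more about how the mice were raised or paired. For standard errors and p-values limma combines a gene's spread between these 2 mice per group with the spread of all genes tested. They are thus not a measure of the spread of that gene alone.

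Among the members, Ncr1 and Klrb1c were the most restricted to NK cells. Between 97.2% and 98.9% of the summed Ncr1 value of a mouse lay in NK cells, and for Klrb1c the share was 86.9% to 91.6%. Klre1 lay in NK cells at 60.9% to 89.7%, Klrk1 at 40.3% to 76.6% and Klrc1 at 46.6% to 64.6%. CD8 cells held the next largest part of these, except that in SLE.yaa 2 they equalled NK cells for Klrk1 and passed them for Klrc1, at 48.1%. Klrd1 and Crtam lay mainly in CD8 cells, Klrd1 at 46.9% to 55.0% and Crtam at 63.4% to 78.5%. Klrg1 was the member whose place differed most between mice. In the WT mice NK cells held 69.2% and 69.3% of the Klrg1 value, CD4 cells 30% and 29.9%, and CD8 cells 0.769% and 0.787%. In the SLE.yaa mice the CD8 share was 11.4% and 50%, the CD4 share 42.9% and 17.1%, and the NK share 45.7% and 31.4%. These shares follow the number of cells of each type as well as the level in each cell.

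**Figure D1:**
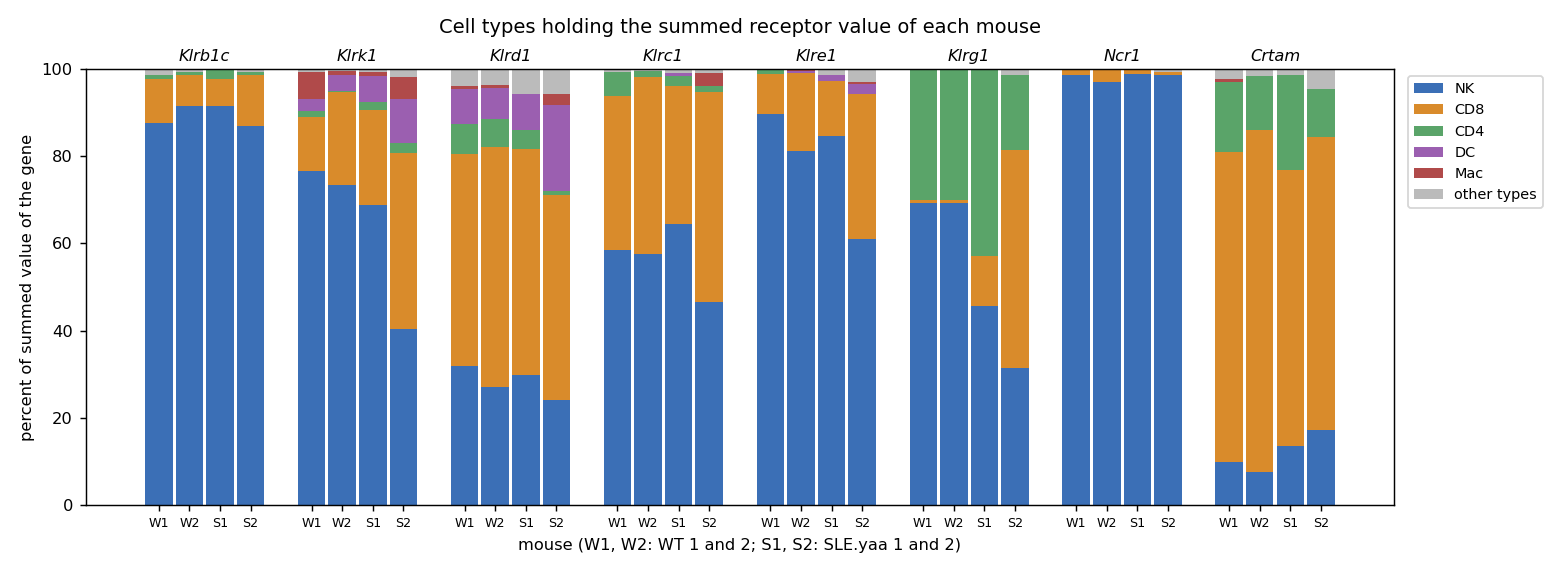
Stacked bars give, for each gene and mouse, the percent of the gene's summed depth-adjusted value (y axis) that lies in each annotated cell type, with W1 and W2 the WT mice and S1 and S2 the SLE.yaa mice. Ncr1 and Klrb1c are almost all NK, Crtam and Klrd1 have their largest part in CD8 cells, and the CD8 part of Klrg1 is 0.769% and 0.787% in the WT mice against 11.4% and 50% in the SLE.yaa mice.

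The share of cells with a value above 0 did not always give the same order. Klrd1 was above 0 in 105 of 119, 107 of 117, 44 of 50 and 39 of 46 NK cells. This was a larger share than in the CD8 cells of each mouse. For Crtam the share was larger in CD8 than in NK cells of each mouse but SLE.yaa 2. Every NK cell of the 4 mice had at least 1 of the 8 receptors above 0, with a median of 6, 5, 6 and 5 of the 8. Among CD8 cells 75.0%, 74.3%, 71.8% and 64.5% had at least 1, and 25.9%, 22.1%, 30.2% and 28.1% had 2 or more. Among CD4 cells 10.8%, 11%, 9.13% and 4.55% had at least 1. B cells, which should lack these genes, gave 0.831% to 1.30%, mostly from Klrd1 (0.543% to 0.892%), and this share is taken as the background. Median depth was 3218 to 4778 UMIs in B cells, 3063 to 4930 in NK cells, 4270 to 6189 in CD8 cells and 3660 to 4407 in CD4 cells. Intervals on shares are exact Clopper-Pearson 95% intervals and cover counting error only.

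**Figure D2:**
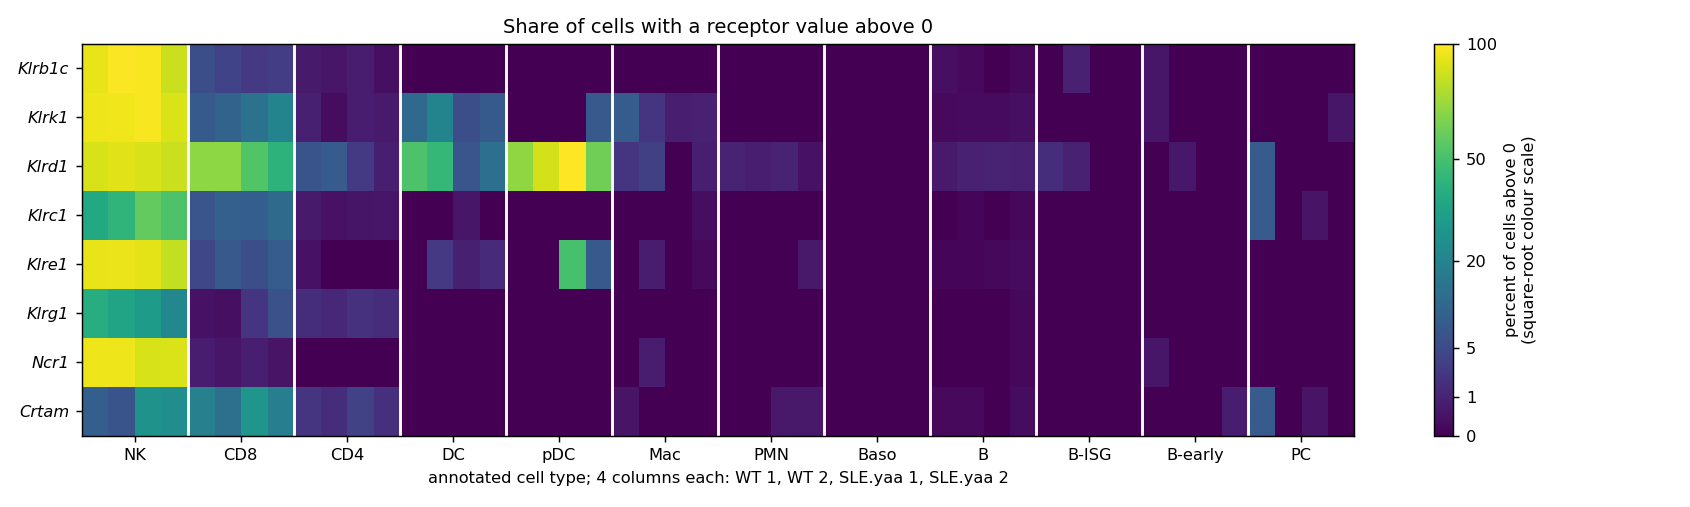
Colour gives the percent of cells with a value above 0 on a square-root scale, with genes in rows and annotated types in columns, 4 mice per type in the order WT 1, WT 2, SLE.yaa 1, SLE.yaa 2. All 8 genes are found in NK cells, but Crtam in only 11 of 119 and 8 of 117 of those of WT 1 and WT 2. Crtam extends to CD8 cells, and Klrd1 to CD8, DC and pDC, where pDC rests on 2 to 13 cells per mouse.

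In NK cells no member passed the test. The count was 0 of 8 members against a background of 7 called among 8275 genes, 0.0846%, and at an unadjusted p under 0.05 limma gave 4 of the 8 members and 495 genes. The median change of the members was a log2 difference of -0.17, beside -0.05 over all genes. Crtam, the receptor for Cadm1, had the lowest p of the 8. Its level was 29.3 and 20.4 in the WT mice and 93.8 and 135 in the SLE.yaa mice, so the groups did not overlap, and the log2 difference was 1.83 with a standard error of 0.315 (limma, adjusted p = 0.080). Scaling to the sum alone gave Crtam an adjusted p of 0.038 by limma, and no filter on low values gave 0.706. Leaving out WT 1 gave a limma adjusted p of 0.014 and SLE.yaa 2 0.018, while leaving out WT 2 gave 0.142 and SLE.yaa 1 0.308.

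Counted by cell, Crtam was above 0 in 11 of 119 NK cells of WT 1 (9.24%, interval 4.71% to 15.9%) and 8 of 117 of WT 2 (6.84%, 3% to 13%). It was above 0 in 13 of 50 NK cells of SLE.yaa 1 (26.0%, 14.6% to 40.3%) and 11 of 46 of SLE.yaa 2 (23.9%, 12.6% to 38.8%). With the depth-adjusted values of every cell thinned to a sum of 2500 units, the shares were 6.72%, 5.13%, 18.0% and 13%. This thins depth-adjusted values and not UMIs, so sequencing depth itself was not equalised. The shares of the 2 groups were apart with and without thinning, but the intervals above overlapped between the groups. The NK cells with Crtam more often had Cd27, a receptor of less mature NK cells, than the other NK cells did. Cd27 was above 0 in 9 of 11, 3 of 8, 6 of 13 and 8 of 11 NK cells with Crtam, against 19.4%, 24.8%, 32.4% and 22.9% of those without. Itgam, an integrin of mature NK cells, went the other way, at 4 of 11, 4 of 8, 3 of 13 and 2 of 11 with Crtam against 63.0%, 56.0%, 59.5% and 42.9% without.

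Markers of other cells moved together with the group in the NK class. The 8 measured T cell markers summed to 339 and 332 in the WT mice and 725 and 664 in the SLE.yaa mice, and 1 of the 6 tested rose. The 5 markers of type 1 innate lymphoid cells summed to 217, 296, 827 and 863, and 1 of the 5, Ltb, rose. Cells with a T cell receptor sequence or with 2 or more CD3 genes were 2.52%, 2.56%, 14.0% and 13% of NK cells. Without those cells Crtam was 28, 18.8, 97.5 and 108, a log2 difference of 1.77 with a standard error of 0.329 (limma, adjusted p = 0.145). With all NK cells the log2 difference was 1.83. T cells in which neither a receptor nor 2 CD3 genes were found stay in the fit without those cells. The part of the T cell and innate lymphoid markers in the Crtam difference was not tested.

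Klrc1 and Klrg1, both inhibitory, lay on opposite sides of the WT mice in NK cells, although neither passed the test. Klrc1 was 196 and 287 in the WT mice and 349 and 364 in the SLE.yaa mice (log2 difference 0.57, SE 0.225, limma adjusted p = 0.805). Klrg1 was 203 and 199 in the WT mice, above the 136 and 129 of the SLE.yaa mice (log2 difference -0.56, SE 0.215, limma adjusted p = 0.780). Both pairs of mice were apart, but by less than the test over all genes requires with 2 mice per group. Klrc1 was above 0 in 37.0% and 42.7% of WT NK cells and 58.0% and 52.2% of SLE.yaa NK cells, and Klrg1 in 38.7% and 34.2% against 30% and 21.7%. For both genes the intervals of the 2 groups overlapped. NK cells with Klrg1 seldom had Il7r, a cytokine receptor of immature NK cells and innate lymphoid cells, in 1 of 46, 0 of 40, 2 of 15 and 0 of 10 cells against 9.59%, 14.3%, 37.1% and 30.6% of those without Klrg1. NK cells with Klrc1 had it in 7 of 44, 6 of 50, 11 of 29 and 9 of 24.

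Klre1 was also lower in SLE.yaa, at 541 and 622 against 747 and 850 (log2 difference -0.45, SE 0.196, limma adjusted p = 0.805). Klrd1, the partner of Klrc1, was nearly level at 797, 830, 771 and 846, a log2 difference of -0.01 with a standard error of 0.190 (limma adjusted p = 0.996). The activating receptors were close as well. Klrk1 was 961, 1126, 1066 and 834, Ncr1 was 1293, 1090, 1121 and 940, and Klrb1c was 964, 1036, 916 and 816, with limma adjusted p of 0.937, 0.895 and 0.884. Of these only Klrb1c kept the groups apart, and by less than the distance between its SLE.yaa mice. Klrd1, Klrk1, Klrb1c, Klre1 and Ncr1 were each above 0 in 82.6% to 99.1% of NK cells of every mouse.

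**Figure D3:**
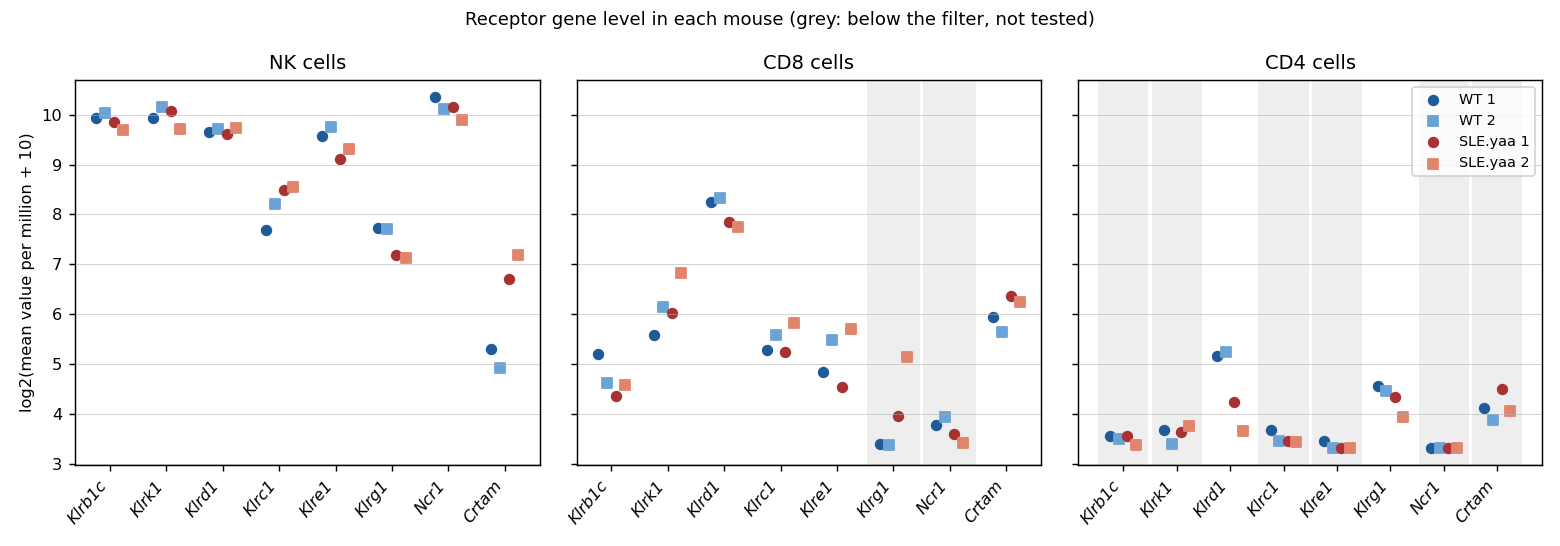
Each point is 1 mouse, with log2(level + 10) on the y axis for the 8 genes in NK, CD8 and CD4 cells, and grey bands mark genes below the filter. Levels are not divided by gene length, so heights compare mice within a gene and not genes. In NK cells Crtam is 93.8 and 135 in SLE.yaa against 29.3 and 20.4 in WT, and Klrd1 is lower in both SLE.yaa mice in CD8 and CD4 cells.

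None of the further NK genes listed by role passed the test in NK cells. The list of Ly49 and other receptors of the NK complex had 17 genes tested with 0 called and a median log2 difference of -0.18, and its 2 highest genes were the activating receptor Klra8, at 1036, 990, 473 and 646, and Klra4, at 733, 654, 367 and 370. For these the limma adjusted p was 0.395 and 0.264. Signalling adaptors (16 tested, 0 called, median -0.10) were led by Tyrobp and Fcer1g, and Cd2 was among the highest of the surface receptors (16 tested, 0 called, median -0.11). Ligands (7 tested, 0 called, median 0.19) were led by H2-K1 and H2-D1, and transcription factors and cytokine receptors (22 tested, 0 called, median -0.19) by Il2rb and Id2. Tyrobp, which carries the signal of several activating receptors, was 4137, 3476, 3312 and 4281, and the groups overlapped. The 7 genes called in NK cells, all higher in SLE.yaa, were Ighg2c, Ccdc184, Ifi27l2a, Ly6a, Cd3d, Igkc and Ltb. Ighg2c and Igkc are immunoglobulin genes, made by B and plasma cells. The 5 plasma cell markers summed to 74.5, 79.1, 213 and 147 in the NK class. Without the NK cells that had a B cell receptor or B cell genes, 6 of 8147 genes were called, with no member among them. The part of these transcripts was otherwise not tested.

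In CD8 cells, 6 of the 8 members passed the filter and 0 were called, where 258 of 8281 genes, 3.12%, were. At an unadjusted p under 0.05 limma gave 2 of the 6 and 1324 genes. The median member change was 0.03, beside -0.03 over all genes. Klrd1 fell short of the threshold with the lowest p of the 6. Its level was 296 and 312 in the WT mice and 219 and 204 in the SLE.yaa mice, a log2 difference of -0.50 with a standard error of 0.137 (limma, adjusted p = 0.085). Both SLE.yaa mice were below both WT mice, and scaling to the sum alone brought the limma adjusted p to 0.036. Without SLE.yaa 1 the limma adjusted p was 0.00021 and without SLE.yaa 2 it was 0.010, while without WT 1 it was 0.689 and without WT 2 it was 0.865.

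The share of CD8 cells with Klrd1 showed the same order with narrow intervals. It was 308 of 448 cells (68.8%, interval 64.2% to 73.0%) and 392 of 569 cells (68.9%, 64.9% to 72.7%) in the WT mice. In the SLE.yaa mice it was 155 of 291 (53.3%, 47.4% to 59.1%) and 142 of 338 (42.0%, 36.7% to 47.5%). Thinned to 2500 units per cell, the shares were 51.8%, 50.4%, 38.1% and 30.2%. The intervals of the 2 groups did not touch, but an exact two-sided permutation test of 2 mice against 2 cannot give a p below 0.333. Among cells with a T cell receptor sequence Klrd1 was 273, 305, 218 and 182 (log2 difference -0.51, limma adjusted p = 0.124).

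Naive-type genes were also less frequent in the CD8 cells of SLE.yaa mice. Lef1, a transcription factor of naive T cells, was above 0 in 82.1%, 86.2%, 81.3% and 40.1% of CD8 cells with Klrd1 and in 77.1%, 83.1%, 50% and 34.7% of those without. Lef1 was thus nearly as frequent without Klrd1 as with it in the WT mice and in SLE.yaa 2. In SLE.yaa 1 it was more frequent in the CD8 cells with Klrd1. Gzmk, a granzyme of memory and effector CD8 cells, was above 0 in 3 of 308 and 9 of 392 WT cells with Klrd1, and in 23 of 155 and 62 of 142 SLE.yaa cells with Klrd1. Among SLE.yaa CD8 cells without Klrd1 it was above 0 in 42.6% and 57.1%. Klrd1 was above 0 in 77.4%, 88.7%, 69.2% and 55% of CD8 cells with its partner Klrc1. Without Klrc1 it was above 0 in 68.1%, 66.9%, 51.7% and 40.3%, and the intervals overlapped in each mouse but WT 2. The difference was not particular to Klrc1. With Klre1 the Klrd1 shares were 85.0%, 90.9%, 76.5% and 75.9%, against 68.0%, 67.0%, 51.8% and 38.8% without Klre1. The part of the naive-type and effector genes in the Klrd1 level was not tested.

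CD8 cells with Klrk1, Klrc1 or Klre1 mostly had the effector chemokine Ccl5 as well, and in both SLE.yaa mice so did more than 50% of the CD8 cells without Klrk1, Klrc1 or Klre1, each taken in turn. Klrk1 was 37.9, 60.8, 55.2 and 103, and the groups overlapped (log2 difference 0.56, SE 0.259, limma adjusted p = 0.322). Leaving out 1 mouse moved the log2 difference between 0.16 (without SLE.yaa 2, limma adjusted p = 0.667) and 0.96 (without SLE.yaa 1, 1.86e-07), and the limma adjusted p was 0.991 without WT 1 and 0.489 without WT 2. By cell it was above 0 in 8.04% (5.69% to 11%) and 10.2% (7.83% to 13%) of WT CD8 cells and in 14.1% (10.3% to 18.6%) and 20.4% (16.2% to 25.1%) of SLE.yaa CD8 cells. Thinned to 2500 units these became 5.80%, 8.96%, 9.28% and 16.3%, and only SLE.yaa 2 then stood clearly above WT 2. Ccl5 was above 0 in 31 of 36, 54 of 58, 35 of 41 and 67 of 69 CD8 cells with Klrk1. Among CD8 cells without Klrk1 its share was 25.7%, 27.2%, 50.4% and 87.0%. It was above 0 in 31 of 31, 51 of 53, 24 of 26 and 40 of 40 CD8 cells with Klrc1 and in all 20, 44, 17 and 29 with Klre1, against 27.3%, 28.4%, 52.6% and 88.0% of those without Klre1. The CD8 cells with Klrk1 in WT mice often had no Cd8b1, the CD8 beta chain: 19 of 36 and 28 of 58 had it, against 90.5% and 92.0% of those without Klrk1. In the SLE.yaa mice 32 of 41 and 56 of 69 had it, against 83.6% and 72.9%.

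Klrc1 was 29.1, 37.7, 28 and 46.6 in CD8 cells and Klre1 was 18.7, 34.8, 13.3 and 42.2, so the groups overlapped for both (limma adjusted p = 0.867 and 0.971). Klre1 differed by -0.63 without SLE.yaa 2 (limma adjusted p = 0.030) and by 0.54 without SLE.yaa 1 (0.024), so its sign rested on 1 mouse. Without WT 1 and without WT 2 the limma adjusted p was 0.991 and 1. Klrb1c was low, at 26.9 and 14.7 against 10.5 and 13.8 (limma adjusted p = 0.349). Ncr1 did not pass the filter, with 3, 2, 2 and 1 CD8 cells above 0. Crtam was 51.7, 39.8, 72.7 and 65.5, groups that did not overlap (log2 difference 0.51, SE 0.166, limma adjusted p = 0.145), and without SLE.yaa 1 or SLE.yaa 2 the limma adjusted p was 0.038 and 0.011, while without WT 1 or WT 2 it was 0.358 and 0.979. The share of CD8 cells with Crtam overlapped, at 19.0%, 13.5%, 27.1% and 18.3%.

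Klrg1 stayed under the filter in CD8 cells and so was not tested, but its cells were almost all in the SLE.yaa mice. It was above 0 in 1 of 448 and 1 of 569 WT CD8 cells (0.223% and 0.176%). In the SLE.yaa mice it was above 0 in 7 of 291 (2.41%, interval 0.972% to 4.89%) and 21 of 338 (6.21%, 3.89% to 9.34%). B cells had it in 0.0408% of cells at most. Ccl5 was above 0 in 7 of 7 and 21 of 21 of the SLE.yaa CD8 cells with Klrg1, Nkg7, a granule protein, in the same 7 and 21, and Gzmk in 4 and 17. Among the SLE.yaa CD8 cells without Klrg1 these were also frequent, Ccl5 at 54.2% and 88.3%, Nkg7 at 94.0% and 98.7% and Gzmk at 27.1% and 49.5%. Lef1 was above 0 in 3 of these 7 and 5 of these 21.

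Other genes of the listed roles rose in CD8 cells, where no member was called. The background of higher calls was 2.46%. Of 13 signalling adaptors tested, 2 rose and 0 fell (median 0.29). Of 12 surface receptors 5 rose and 0 fell (median 0.20), of 7 ligands 3 rose and 0 fell (median 0.77), and of 20 transcription factors and cytokine receptors 8 rose and 0 fell (median 0.78). Of 4 Ly49 and related receptors none was called (median -0.24), and the 2 highest were Cd69, an early activation antigen, and Klra7. The inhibitory receptors Lag3, Tigit and Pdcd1 rose by 3.23, 2.74 and 2.18 on the log2 scale, and Slamf7 rose by 1.52. Eomes, a factor shared by NK and memory CD8 cells, rose by 1.65 from 52.2 and 58.7 to 174 and 220 (limma adjusted p = 0.00057), and Id2, Zeb2, Tox, Cx3cr1 and Cxcr3 rose by 1.76, 1.27, 1.17, 2.25 and 1.27. Qa-1, the ligand of the Klrd1 and Klrc1 pair, is made by H2-T23, which rose from 364 and 281 to 507 and 629 (log2 difference 0.80, SE 0.166, limma adjusted p = 0.028). The 10 called genes with the largest change were Ighg2b, Igkc, Gzmk, Jchain, Lag3, Ly6a, Gzmb, Ccl3, S100a4 and Ccl5. The immunoglobulin genes among them are made by B and plasma cells. In CD8 cells the 5 plasma cell markers summed to 43.4, 37.3, 457 and 148 and the 8 B cell markers to 287, 315, 270.5 and 449.6. Without the CD8 cells that had a B cell receptor or B cell genes, 200 of 8202 genes, 2.44%, were called, with no member among them. In that fit Klrd1 differed by -0.48, Crtam by 0.49 and Klrk1 by 0.51 on the log2 scale (limma adjusted p = 0.117, 0.186 and 0.416). The part of these markers in the results was otherwise not tested.

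In CD4 cells the members were rare, and 1 of the 2 that passed the filter was called, beside 2378 of 8415 genes, 28.3%. The background was 12.3% lower and 15.9% higher. Klrd1 fell. Its level was 25.8 and 27.8 in the WT mice against 9.04 and 2.64 in the SLE.yaa mice, a log2 difference of -1.25 with a standard error of 0.182 (limma, adjusted p = 8.23e-05). The gene was under 10 in both SLE.yaa mice and so passed the filter through the WT mice alone. With no filter the limma adjusted p was 0.0045. Klrd1 was above 0 in 53 of 797 WT 1 cells (6.65%, interval 5.02% to 8.61%) and 68 of 834 WT 2 cells (8.15%, 6.39% to 10.2%). It was above 0 in 18 of 635 SLE.yaa 1 cells (2.83%, 1.69% to 4.44%) and 4 of 550 SLE.yaa 2 cells (0.727%, 0.199% to 1.85%). The last share lies at the level of the B cells, and the WT shares were many times above it. Thinned shares were 4.89%, 5.40%, 1.89% and 0.364%.

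The CD4 cells with Klrd1 rarely had transcripts of regulatory T cells. Foxp3, the factor that defines regulatory T cells, was above 0 in 1 of 53, 0 of 68, 0 of 18 and 0 of 4 of them, against 9.01%, 8.75%, 22.9% and 21.1% of the CD4 cells without Klrd1. Lef1 was above 0 in 44 of 53, 64 of 68, 10 of 18 and 0 of 4. Without Klrd1 it was above 0 in 78.5%, 82.8%, 37.3% and 30.4%. The share of Lef1 cells thus moved with the group beside Klrd1, and its part in the Klrd1 result was not tested.

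CD8 transcripts were also present in this class. The 2 CD8 marker genes summed to 43.7 and 63.1 in the WT mice and 28.9 and 32.5 in the SLE.yaa mice, and the 1 of them tested, Cd8b1, fell. CD4 cells with a Cd8a or Cd8b1 value were 9.16%, 8.63%, 6.30% and 5.27% of the class and had Klrd1 more often. Without them Klrd1 was 23.6, 25.3, 7.41 and 1.40 (log2 difference -1.29, limma adjusted p = 3.07e-05), beside -1.25 with them. Among CD4 cells with a T cell receptor sequence it was 20.2, 25.9, 8.62 and 2.54 (log2 difference -1.11, limma adjusted p = 4.48e-05). In both fits the gene was again under 10 in both SLE.yaa mice and passed the filter through the WT mice alone. The part of the CD8 transcripts in the Klrd1 result was not tested. Without either WT mouse Klrd1 was under the filter and gave no test, since 2 mice then had to reach 10.

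Klrg1 in CD4 cells lay in cells with Foxp3. It was above 0 in 14, 10, 13 and 9 CD4 cells, which is 1.76%, 1.20%, 2.05% and 1.64%, and Foxp3 was above 0 in 8, 7, 11 and 8 of these. Among CD4 cells without Klrg1 the Foxp3 share was 7.66%, 7.28%, 20.9% and 19.8%. The level of Klrg1 was 13.6, 12, 10.4 and 5.27 (log2 difference -0.37, SE 0.165, limma adjusted p = 0.113). Leaving out the cells with B cell transcripts or a B cell receptor gave levels of 15.4, 12.6, 9.70 and 4.82 (limma adjusted p = 0.049). In that fit Klrg1 passed the filter through the WT mice alone. Leaving out 1 mouse at a time moved its log2 difference between -0.57 and -0.16. The share of cells overlapped between the groups, while the level did not. Crtam was above 0 in 2.26%, 1.68%, 3.78% and 1.82% of CD4 cells and did not pass the filter. Klrb1c, Klrk1, Klrc1 and Klre1 were each above 0 in at most 6 CD4 cells of a mouse. Ncr1 was above 0 in 0 of 797, 0 of 834, 0 of 635 and 0 of 550 cells, which by a limit of 3 cells of the total allows a share of up to 0.376%, 0.360%, 0.472% and 0.545%. This limits cells with a value above 0, for counting error only, and not cells that express the gene.

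**Figure D4:**
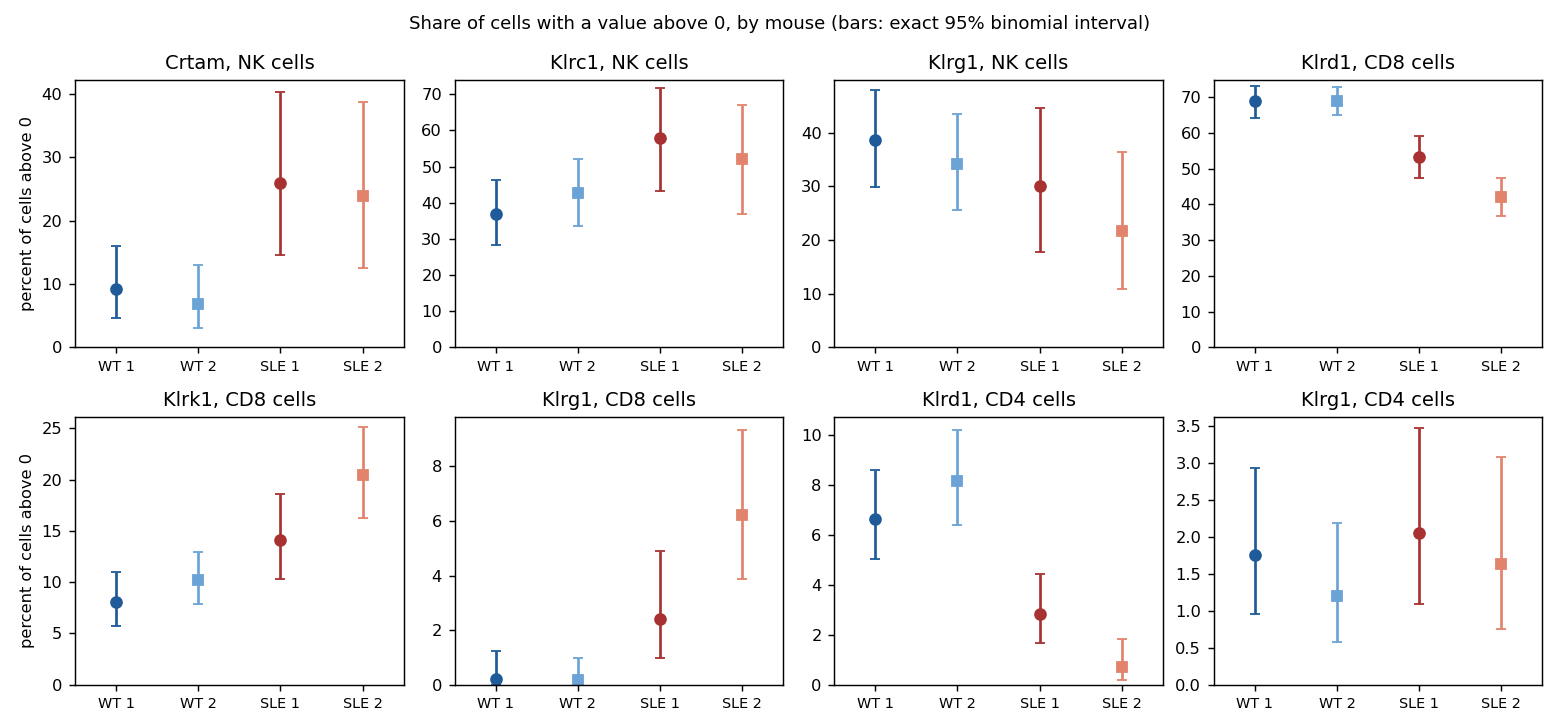
Points give the percent of cells with a value above 0 in each mouse for 8 pairs of gene and cell type, and bars the exact 95% binomial interval. Klrd1 is lower in both SLE.yaa mice in CD8 and in CD4 cells, Crtam in NK cells and Klrg1 in CD8 cells are higher, and the Klrg1 shares in CD4 cells overlap.

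Many other genes of the listed roles rose in CD4 cells. Of 14 adaptors tested 6 rose and 1 fell (median 0.21), of 11 surface receptors 6 rose and 3 fell (median 0.61), of 8 ligands 6 rose and 1 fell (median 0.68), and of 18 transcription factors and cytokine receptors 13 rose and 0 fell (median 0.94), where the median over all genes was -0.015. The adaptor that fell was Plcg2, and the ligand was Pvr, which Cd226, Cd96 and Tigit bind. Of the Ly49 list, Cd69 alone was tested and was not called, and Klrb1f had the next highest mean. Lag3, Tigit and Pdcd1 rose by 5.17, 4.11 and 3.67 on the log2 scale. Cxcr3, Nfil3, Il2rb, Prdm1, Ptpn11, Id2 and Tox rose by 2.72, 2.34, 2.14, 1.94, 1.83, 1.74 and 1.74. Cd96 and Cd226, which share ligands with Tigit, were among the surface receptors that fell. Over all genes the 5 with the largest change were Sostdc1, Lag3, Tigit, Eea1 and S100a6.

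Among the other annotated types with at least 20 cells in each mouse, members passed the filter in dendritic cells (DC) alone, where 1 of 2 was called beside 1091 of 8832 genes, 12.4%, with 3.77% lower and 8.58% higher. Klrd1 was 267 and 333 in the WT mice and 45.1 and 101 in the SLE.yaa mice, a log2 difference of -1.98 with a standard error of 0.303 (limma, adjusted p = 0.0035). It was above 0 in 40 of 77 and 33 of 74 WT cells (51.9% and 44.6%) and in 18 of 260 and 39 of 290 SLE.yaa cells (6.92% and 13.4%). Klrk1 was 45, 86.8, 19.0 and 30.7, with both SLE.yaa mice below both WT mice (log2 difference -1.09, SE 0.326, limma adjusted p = 0.062), and scaling to the sum alone gave 0.029. Without WT 1 the Klrk1 difference was -1.49 (limma adjusted p = 4.5e-07), and without SLE.yaa 2 it was -1.34 (0.022), while without WT 2 and without SLE.yaa 1 it was -0.68 and -0.84 (limma adjusted p = 0.053 and 0.290). With no filter on low values Klrd1 had a limma adjusted p of 0.068. Over this class the median change of all genes was 0.07.

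The cells annotated DC differed in kind between the groups, and this moves with the Klrd1 result. Cells with a value for C1qa, C1qb or C1qc, the complement chains of macrophages, were 5.19% and 12.2% of the WT class and 80.4% and 75.5% of the SLE.yaa class. The 8 monocyte and macrophage markers summed to 4456, 5896, 17807 and 15557, and the 5 erythroid markers to 0, 10.4, 1438 and 2569. Klrd1 was nearly absent from the cells with C1q, in 0 of 4, 0 of 9, 1 of 209 and 1 of 219. In the cells without C1q it was above 0 in 54.8% and 50.8% of WT cells and 33.3% and 53.5% of SLE.yaa cells. A fit on the cells without C1q gave Klrd1 levels of 293, 382, 203 and 340, groups that overlapped (log2 difference -0.34, SE 0.252, limma adjusted p = 0.790), where 0.401% of genes were called. Klrk1 was then 49.4, 99.4, 42.2 and 87.8 (log2 difference -0.17, limma adjusted p = 0.956). Neither gene was called among the cells without C1q.

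**Figure D5:**
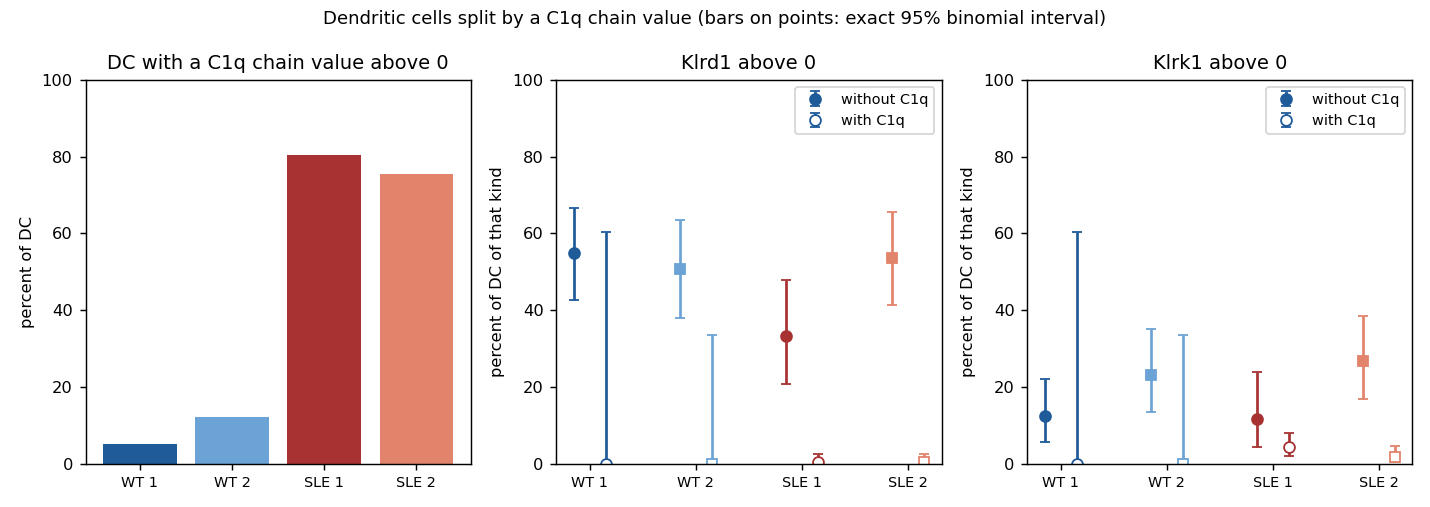
The left panel gives the percent of cells annotated DC with a C1q chain value above 0 in each mouse, and the other panels the percent of cells with Klrd1 or Klrk1 above 0 among those without (filled) and with (open) C1q, with exact 95% intervals. C1q cells are 5.19% and 12.2% of the WT class and 80.4% and 75.5% of the SLE.yaa class, and Klrd1 lies in the cells without C1q in all 4 mice.

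The DC with Klrd1 often had Flt3, the growth factor receptor of conventional dendritic cells, in 29 of 40, 26 of 33, 10 of 18 and 24 of 39 cells. Sirpa, which marks the second kind of conventional dendritic cell, was above 0 in 32 of 40, 26 of 33, 14 of 18 and 30 of 39, against 56.8%, 46.3%, 78.5% and 79.7% of the cells without Klrd1. Xcr1, a marker of the cross-presenting kind, was above 0 in 0, 0, 0 and 1 of them, against 5.41%, 9.76%, 3.72% and 4.78%. Clec9a, another marker of that kind, was above 0 in 6 of 40, 4 of 33, 2 of 18 and 2 of 39 cells with Klrd1, against 8.11%, 24.4%, 4.96% and 4.78%. Klrb1c, Ncr1, Klrg1 and Crtam were at 0 in every cell of the class. Of the listed genes in DC, 3 of 5 Ly49 and related receptors rose and 1, the Klre1 partner Klri1, fell. Klra17, Klra2 and Klrb1b rose by 3.15, 3.15 and 2.09 on the log2 scale, Fcgr3 by 2.27, Fcer1g by 1.98, Cx3cr1 by 2.10 and Sh2d1b1 by 1.6. Cadm1, the ligand of Crtam, rose by 2.18 from 45 and 76.4 to 270 and 340 (limma adjusted p = 0.00093). Runx3 and Slamf7 fell by 1.91 and 1.76. The shift to cells with C1q stands beside each of these as well, and its part was not tested.

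Plasmacytoid dendritic cells (pDC), the main source of type I interferon, were too few for a fit, with 13, 8, 2 and 13 cells. Klrd1 was above 0 in 9, 7, 2 and 8 of them, while Klrc1, its usual partner, was above 0 in none. Siglech, a pDC receptor, was above 0 in every pDC. In the class annotated Mac, Klrk1 was above 0 in 32 of 375 and 4 of 169 WT cells (8.53% and 2.37%) and in 4 of 550 and 12 of 1485 SLE.yaa cells (0.727% and 0.808%), and the gene was under the filter. In WT 1, 26 of the 32 had Ly6c2, a marker of classical monocytes, and in the other mice so did 1 of 4, 4 of 4 and 9 of 12. Mac cells with a Ly6c2 value were 45.1% and 37.3% of the WT class and 18.0% and 15.8% of the SLE.yaa class. In neutrophils (PMN) Klrd1 was above 0 in 0.245% to 1% of cells and Klrk1 in none, and in basophils all 8 genes were at 0.

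Over all cells of the spleen together, 5 members passed the filter and each was called lower, where 665 of 8544 genes, 7.78%, were called, 1.84% lower and 5.95% higher. Klre1, at 18.5, 21.4, 6.54 and 6.96, passed the filter through the WT mice alone, so the count is given as a description. With no filter its limma adjusted p was 0.022. Fewer cells of a type and less RNA per cell cannot be told apart in these values alone. Klrb1c was 24.5 and 23.1 in the WT mice and 10.2 and 6.40 in the SLE.yaa mice (log2 difference -0.89, SE 0.122, limma adjusted p = 0.012). Klrd1 was 55.5 and 62.4 against 26.4 and 23.9 (log2 difference -0.97, SE 0.100, limma adjusted p = 0.0048). Klrk1, Klre1 and Ncr1 fell by 0.67, 0.84 and 0.93 on the log2 scale, with limma adjusted p of 0.014, 0.0065 and 0.022. On the mean of the ln values Klrk1 had a limma adjusted p of 0.067, and with no filter Ncr1 had 0.055. Within NK cells themselves the same 5 genes had log2 differences between -0.45 and -0.01, none of them called. NK cells were 119 and 117 of 5497 and 5697 WT cells and 50 and 46 of 4961 and 6130 SLE.yaa cells, so the class was smaller in the SLE.yaa mice as well. Crtam, at 6.64, 5.58, 7.15 and 5.36, Klrc1 and Klrg1 did not pass the filter. Of 5 Ly49 and related receptors tested 3 fell, Klra8 by 1.09 on the log2 scale and Klra4 and Klra7 by less, while Lag3, Tigit, Pdcd1, Cxcr3, Cd244a, Zeb2, Cadm1, Prdm1 and Nfil3 rose by 2.62, 2.33, 1.88, 1.74, 1.34, 1.28, 1.25, 1.12 and 0.95. The adaptors Tyrobp and Fcer1g were not called.

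The changes in NK, CD8 and CD4 cells were compared directly within mice, and no member differed between types by this test. Of the 6 members measured in NK and CD8 cells 0 were called, where 1 of 7666 genes, 0.013%, was, and limma gave 1 of the 6 and 681 genes at an unadjusted p under 0.05. Crtam changed by 1.32 more in NK than in CD8 cells on the log2 scale (SE 0.328, limma adjusted p = 0.321). Klrd1 changed by 0.49 more in NK than in CD8 cells (SE 0.233, limma adjusted p = 0.602). For NK against CD4 cells 0 of 2 members were called, where 0.861% of 7665 genes were. At an unadjusted p under 0.05 limma gave 1 of the 2 and 1161 genes. Klrd1 had a difference of 1.24 there (SE 0.412, limma adjusted p = 0.239). For CD4 against CD8 cells 0 of 1 were called, where 6.54% of 7932 genes were, with 1 of 1 and 1655 genes at an unadjusted p under 0.05 by limma. The Klrd1 difference was -0.74 (SE 0.329, limma adjusted p = 0.233). Klrd1 passed the filter in CD4 cells through the WT mice alone, which holds for both comparisons with CD4 cells. It fell past the threshold in CD4 cells, was lower but short of it in CD8 cells and was nearly level in NK cells. These changes are not shown to differ between the types.

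T cell receptor sequences from separate libraries placed some T cells in clones of 2 or more cells. In CD8 cells such clones held 3 and 4 cells in the WT mice and 34 and 38 in the SLE.yaa mice, so only the latter can be described. In SLE.yaa 1, 20 of 34 clone cells had any member above 0 (58.8%, interval 40.7% to 75.4%) against 75.4% of CD8 cells with an unshared receptor. In SLE.yaa 2 the shares were 30 of 38 (78.9%, 62.7% to 90.4%) and 60.3%, so the 2 mice went opposite ways. Klrk1 was above 0 in 8 of 34 and 10 of 38 clone cells (23.5% and 26.3%), against 13.1% and 19.0% of unshared cells. Klrd1 was above 0 in 10 of 34 and 19 of 38 (29.4% and 50%) against 56.3% and 35.7%. Klrg1 was above 0 in 2 of 34 and 5 of 38 clone cells and in 3 of 199 and 5 of 126 unshared cells. Cells of a clone share an ancestor and are not replicates.

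The members' levels were compared with those of all other genes over the 38 means of cell type and mouse with at least 20 cells, as a description. Ncr1 was most like Klrb1a, Klra4 and Klra9 (Pearson r 0.998, 0.996 and 0.995). Klrb1c was most like Klrc2, Klra7 and Klra9 (0.994, 0.992 and 0.991), and Klre1 like Klrc2, Klra7 and Gzma (0.995, 0.990 and 0.975). Klrc1 was most like Samd3, Klrc2 and Xcl1 (0.994, 0.983 and 0.979), Klrg1 like Gzma, Itga2 and Adamts14 (0.964, 0.963 and 0.959) and Klrk1 like Ctla2b, Klrb1f and Arsb (0.937, 0.932 and 0.931). Klrd1, the member spread over most types, was most like Cd7, Serpinb6b and 1700025G04Rik (0.983, 0.929 and 0.921). Crtam was most like Nkg7, Ctsw and Cd160 (0.939, 0.937 and 0.927). Among the members themselves r was highest for Klrb1c with Klre1 (0.987) and lowest for Ncr1 with Crtam (0.645). The points share libraries and cell types, and the 4 NK means weigh on every r.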

How the data were processed

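Expression in 22285 spleen cells of 4 mice was deposited as natural log values. The authors' values are ln(1 + x), where x was a whole number throughout. The sum of x per cell was 2663 to 6382 while the deposited UMI count per cell was 1002 to 26847, so x is a depth-adjusted number and not a count, by a step not given in the sources used here. Per the submitters' processing notes, Cell Ranger 5.0.0, Seurat 4.0.0 and GRCm38 (mm10) were used. The authors' deposited cell types were used, and doublets were not called again. The deposited percent of mitochondrial reads was not used to filter.

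For each mouse and type the mean of x was scaled to 1000000 and by TMM factors (edgeR 4.0.16, R 4.3.3). SLE.yaa was tested against WT on log2(level + 10) with limma 3.58.1 (variance trend, two-sided, Benjamini-Hochberg over all genes, threshold 0.05), for genes at 10 or more in 2 mice and types with 20 or more cells in every mouse. The code was tested on simulated data. Rows with no gene name (15) held 0.044% of values and were left out. T cell receptors were matched by barcode for 3281 of 4001 cells.

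The 8 genes, the lists and the tests were chosen with earlier results of these data known. Further genes are named where they passed the test in a list, up to 10 per comparison, and otherwise the 2 highest of a list, together with the 10 (NK, CD8) or 5 (CD4) largest changes called and 3 genes of like pattern per member. Alternatives are in the closing section, and 2 of them, the CD4 fit without CD8 transcripts and the DC fit without C1q, were chosen after seeing the data. Sequences and positions are RefSeq's. One further gene is not reported here.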

Additional observations from a re-analysis of the deposited data

How the results depend on the processing

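The counts of members called were 0 in NK, 0 in CD8, 1 in CD4, 1 in the other types and 5 over all cells. With scaling to the sum alone they were 1 in NK (Crtam), 1 in CD8 (Klrd1) and 2 in the other types (Klrd1 and Klrk1 in DC). They were 2 in CD4 without cells that had B cell transcripts or receptors (Klrd1 and Klrg1), 0 in the other types with no filter on low values, and 0 there without the C1q cells. In that CD4 fit Klrd1 and Klrg1 each passed the filter through the WT mice alone. Leaving out 1 mouse at a time gave 0 to 1 in NK, 0 to 4 in CD8, 0 to 2 in CD4, 1 to 2 in the other types and 4 to 5 over all cells. In these fits the lone mouse of a group is assumed to vary like the other group. The CD8 counts were 4 without SLE.yaa 1 and 3 without SLE.yaa 2. For the differences between types, leaving out a mouse did not turn the sign of Klrd1 in either comparison with CD4 cells, wherever it was tested. Klrd1 passed the filter in CD4 cells through the WT mice alone, so these fits do not decide whether its change differs between the types.

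The number of all genes called moved more. In NK cells it was 7, and it was 0 with a pseudocount of 1, 0 with no filter, 0 with no variance trend, 16 with scaling to the sum alone, 4 without cells with T cell transcripts, and 0 to 85 without 1 mouse, the highest without SLE.yaa 2. In CD8 cells it was 19 with no filter and 47 to 1772 without 1 mouse, against 258. In CD4 cells it was 1398 to 2038 without 1 mouse, against 2378. In DC it was 346 with no filter, 34 without C1q cells and 520 to 2096 without 1 mouse, against 1091. Over all cells it was 1072 on the mean of the ln values and 447 to 1774 without 1 mouse, against 665. The split of higher against lower calls moved from 758 and 333 to 594 and 493 in DC with scaling to the sum alone, and on the ln means from 1339 and 1039 to 1843 and 501 in CD4 cells and from 508 and 157 to 1005 and 67 over all cells.

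Signs turned only where no call was made in the fit as reported. Klrd1 in NK cells turned to 0.033 on the ln means and 0.0165 without the cells with B cell transcripts, and ranged from -0.083 to 0.056 without 1 mouse. Klrk1 in NK cells ranged from -0.32 to 0.026 without 1 mouse. Klre1 in CD8 cells turned to 0.0013 with a pseudocount of 50, 0.0070 on the ln means and 0.15 in cells with a T cell receptor, and ranged from -0.63 to 0.54 without 1 mouse. Klrc1 in CD8 cells ranged from -0.19 to 0.39 without 1 mouse. The NK against CD8 difference ranged from -0.13 to 0.58 for Klrb1c and from -0.89 to 0.070 for Klre1, and the NK against CD4 difference of Klrg1 turned to 0.11 with a pseudocount of 1. The cause was not tested.

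Thinning of the depth-adjusted values, not of UMIs, moved the group difference in the share of NK cells with Crtam from 16.9 to 9.60 percentage points. It moved that of CD4 cells with Klrd1 from -5.62 to -4.02. No paired analysis was possible because the replicate numbers follow the order of deposit and pair no mice. With 2 mice per group and 46 to 119 NK cells per mouse, a level that misses the threshold in NK cells is not shown to be equal.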
